A study of Mus musculus with 2 samples.

Results

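Cells read nucleotides outside the cell through the P2 receptors and adenosine through the adenosine (P1) receptors, and 10 of these receptors are described here in mouse macrophages with and without interleukin-4 (IL-4). They are the ATP-gated channels P2rx4 and P2rx7, the G protein-coupled P2Y receptors P2ry1, P2ry2, P2ry6, P2ry12, P2ry13 and P2ry14, and the adenosine receptors Adora2a and Adora2b. The members were chosen by name, and every gene probe whose RefSeq accession belongs to one of them was read, which gave 13 probes in 22 spots for 10 of the 20656 genes that could be named on the array. Bone marrow-derived macrophages (BMDMs) are macrophages grown from bone marrow in macrophage colony-stimulating factor. Here the donors were Crif1 f/f mice, male and 8 weeks old, which carry loxP sites around Crif1, and no Cre driver is named for the array samples. One set of BMDMs was untreated and the other received IL-4 for 18 h, both carried the floxed allele, and the dose of IL-4 for the arrays is not given in the sources used here. Each RNA went on 1 Agilent array in a single colour, Cy3, so each condition had 1 array, no difference has a replicate check, and no p-value is given.

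ATP that leaves stressed or dying cells opens the P2X channels and activates several P2Y receptors, and surface enzymes then cut it stepwise to ADP, AMP and adenosine. The P2Y receptors divide by the G protein they couple to: P2RY1, P2RY2 and P2RY6 use Gq and raise calcium, whereas P2RY12, P2RY13 and P2RY14 use Gi and lower cyclic AMP. The adenosine receptors of the A2 type use Gs, raise cyclic AMP and are known in macrophages for restraining inflammatory cytokine output. IL-4 is the cytokine that drives macrophages to the alternative, M2 state.

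The receptors moved apart with IL-4. P2ry1, a Gq-coupled receptor for ADP, was 7.59-fold higher in IL-4-treated BMDMs, and Adora2b, the low-affinity adenosine receptor, was 4.40-fold higher. P2ry13, a Gi-coupled receptor for ADP, was 3.13-fold lower, and P2ry12, the other Gi-coupled ADP receptor, was 1.87-fold lower. P2ry6, the receptor for UDP, was 1.78-fold higher. The other 5 receptors, P2rx4, P2rx7, P2ry2, P2ry14 and Adora2a, differed by at most 0.38 log2 units in either direction.

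A probe is called detected on an array where the scanner software flagged it as well above background, and all 10 receptors, with all 13 of their probes, were detected on both arrays. At least 2-fold higher were 2 of the 10, P2ry1 and Adora2b, where 2.31% of the 12744 genes detected on both arrays reached that size. At least 2-fold lower was 1 of the 10, P2ry13, against 1.44% of the same genes. Over the 14073 genes detected on at least 1 array, 3.06% (431 genes) were at least 2-fold higher and 3.35% (472 genes) at least 2-fold lower, and this split moved with the scaling, to 628 higher and 299 lower after median scaling, 572 and 309 after quantile normalization, 514 and 347 after cyclic loess, 716 and 259 on spike-in controls, 517 and 377 without scaling, and the other way, to 396 and 543, with the 75th percentile over the probes detected on both arrays. The remaining 7 receptors were within 2-fold, 3 of them with a difference below 0. The median log2 difference of the 10 receptors was 0.04, and that of all genes on both arrays was -0.01. Throughout, a log2 difference is IL-4-treated minus untreated, after the log2 intensity of each probe was reduced by the 75th percentile of its array. Ordered by size among the 12744 genes, P2ry1 was number 21 and Adora2b number 44 from the highest difference, and P2ry13 was number 25 and P2ry12 number 257 from the lowest.

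**Figure D1:**
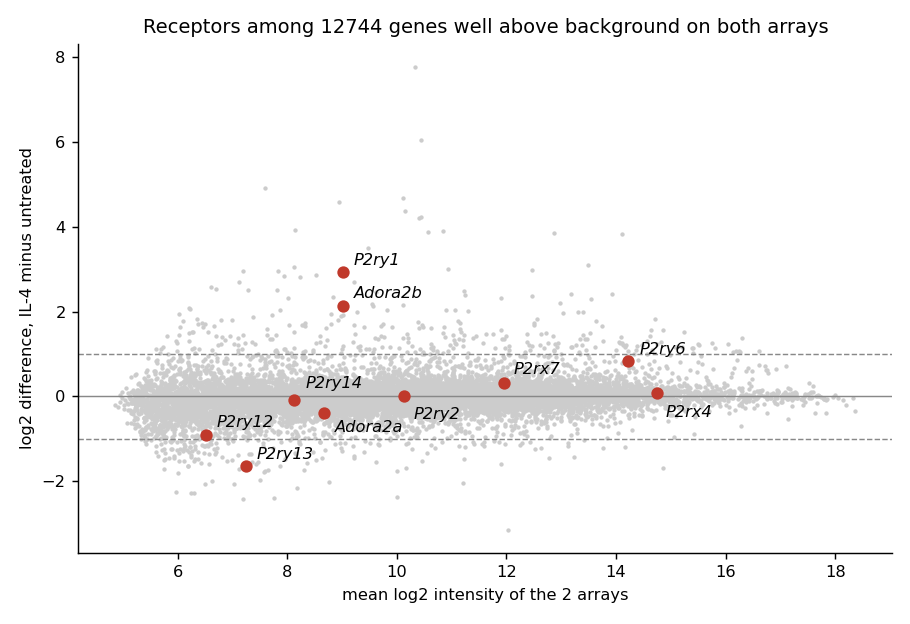
Log2 difference, IL-4 minus untreated, against the mean log2 intensity of the 2 arrays for the 12744 genes detected on both arrays (grey points), with the 10 receptors in red and dashed lines at 2-fold. P2ry1 and Adora2b lie above the upper line, P2ry13 lies below the lower line, and P2ry6 and P2ry12 lie just inside. Intensity belongs to the probe, so positions along the horizontal axis do not order the genes by expression.

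The 250 bases before the transcript start are shown for the receptors with the largest differences in each direction, P2ry1 and Adora2b for the higher side and P2ry13 and P2ry12 for the lower side. The sequences are from RefSeq on GRCm38.p6 and run from 5′ to 3′ on the strand of the gene, with each CpG in capitals.
P2ry1 (chr3:61002535-61002784, plus strand): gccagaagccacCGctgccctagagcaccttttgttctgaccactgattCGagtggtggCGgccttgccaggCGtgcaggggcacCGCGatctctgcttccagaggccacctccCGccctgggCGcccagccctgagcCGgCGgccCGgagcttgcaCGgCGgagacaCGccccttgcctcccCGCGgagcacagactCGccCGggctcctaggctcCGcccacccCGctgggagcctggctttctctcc
Adora2b (chr11:62248734-62248983, plus strand): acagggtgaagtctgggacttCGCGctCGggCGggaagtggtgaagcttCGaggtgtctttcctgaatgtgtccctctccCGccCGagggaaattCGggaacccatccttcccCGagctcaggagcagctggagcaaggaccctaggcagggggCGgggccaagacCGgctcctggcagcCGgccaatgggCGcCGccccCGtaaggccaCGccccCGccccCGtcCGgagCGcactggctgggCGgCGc
P2ry13 (chr3:59210883-59211132, minus strand): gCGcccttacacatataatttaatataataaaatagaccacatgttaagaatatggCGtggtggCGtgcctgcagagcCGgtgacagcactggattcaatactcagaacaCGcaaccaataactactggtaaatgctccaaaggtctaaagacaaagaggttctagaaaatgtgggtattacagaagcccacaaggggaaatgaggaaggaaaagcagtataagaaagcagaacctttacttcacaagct
P2ry12 (chr3:59262986-59263235, minus strand): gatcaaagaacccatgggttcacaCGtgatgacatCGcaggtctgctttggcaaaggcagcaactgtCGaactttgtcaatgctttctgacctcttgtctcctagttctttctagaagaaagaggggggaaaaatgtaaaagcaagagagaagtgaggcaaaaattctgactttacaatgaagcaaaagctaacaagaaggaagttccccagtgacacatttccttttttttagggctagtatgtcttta
The higher pair had dense CpG, with 20 in the P2ry1 window and 22 in the Adora2b window, and a GC content of 70.8% and 69.6%. The lower pair had 5 in the P2ry13 window and 3 in the P2ry12 window, at a GC content of 41.6% in each. Over all 32817 such windows of the RefSeq table the median was 6 CpG and 52.4% GC, and 37.8% of the windows held at least 10 CpG. CpG content did not follow the response over all the receptors, since P2ry2, which differed by 0.01 log2 units, had 21 and 26 in its 2 windows and P2rx4 had 13 in its window.

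Windows were found for 8 of the 10 receptors, 13 windows in all, reaching from 250 bases before to 50 bases after the start. P2ry6 and Adora2a had none in the table. The letters TTCNNNNGAA and TTCNNNGAA, the spaced palindromes that STAT6 and other STAT proteins are known to bind, were searched on both strands and were in 0 of the 13 windows, where 6.94% and 8.29% of all windows held them. TGACGTCA, the cyclic AMP response element, was also in 0 of the 13, against 1.79% of all windows, and so was AGGTCANAGGTCA, a PPAR response element, against 0.0396%. GAGGAAGT, a PU.1 core, was in 1 window, the second of P2rx7, against 3.20% of all windows. A match is only a match of letters, and a window without one says nothing of sites elsewhere.

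The ATP-gated channels differed little. P2rx4, which is opened by low ATP and sits largely in lysosomes, had a background-subtracted intensity of 25792 without and 29137 with IL-4. The scaled difference was 0.08 log2 units, where spots of one probe at like signal spread by 0.04 (SD of the log2 difference between spots, median of 10 probes printed in 10 spots). This spot error is quoted for each receptor, and it covers the printing and scanning of the array but not the spread between cultures. The error given by the scanner software was larger. Carried into the scaled difference, it ran from 0.20 to 0.25 log2 units over the 13 receptor probes. The differences of P2rx4, P2ry2 and P2ry14 were smaller than this software error. P2rx7 differed by 0.31 beside a software error of 0.20, and Adora2a by -0.38 beside 0.21. A small spot SD therefore does not set these differences apart from 0. Quantile normalization turned the sign of the P2rx4 difference, to -0.02.

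P2rx7, the channel that opens at high ATP and drives the potassium loss that triggers the NLRP3 inflammasome, was measured with 3 probes designed to different RefSeq transcripts. The brightest probe, from which the gene was read, had 3464 without and 4602 with IL-4, a difference of 0.31 with a spot SD of 0.05. The second probe had 203 and 269, also a difference of 0.31. The third had 817 and 920, a difference of 0.07 with a spot SD of 0.06. All 3 were higher in the treated cells, and none reached 1.5-fold. Which transcripts each probe reads was not checked, because the probe sequences were not used here.

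**Figure D2:**
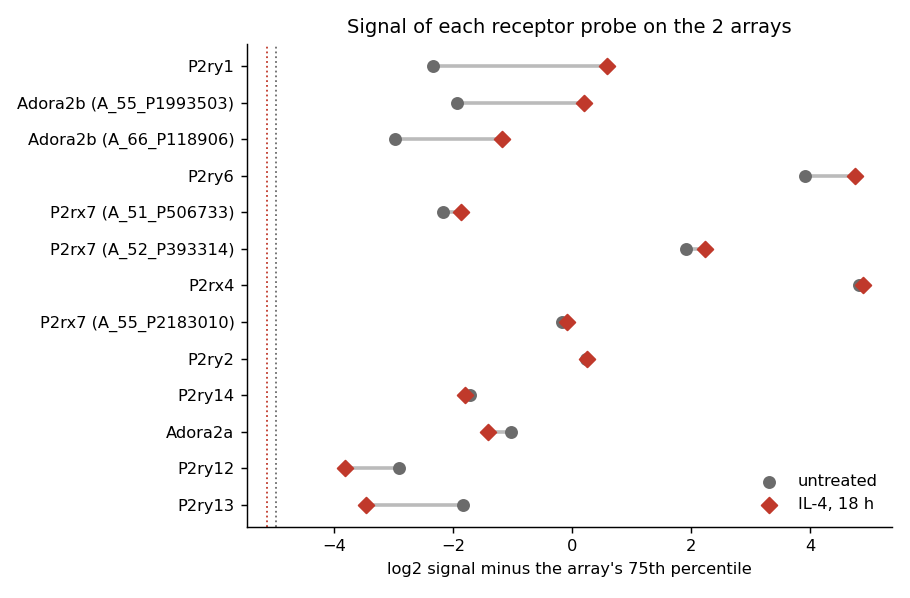
Log2 signal minus the 75th percentile of the array for each of the 13 receptor probes in untreated (grey circles) and IL-4-treated BMDMs (red diamonds), 1 array each, ordered by difference; dotted lines mark the lowest detected signal of each array, in the same colours. The points lie far apart for P2ry1, both Adora2b probes and P2ry13, and nearly coincide for P2rx4, P2ry2 and P2ry14, and levels are comparable within a probe but not between probes.

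Among the Gq-coupled receptors, P2ry1 had an intensity of 181 without IL-4 and 1471 with it. The untreated signal was dim but detected, with an error of 11.1% of the intensity as given by the software. The scaled log2 difference was 2.92, and the spot SD at like signal was 0.06 (median of 67 probes). Like signal here means the mean of the 2 arrays, which is brighter than the untreated spot, so the SD may understate the error of the untreated value. Of the 1587 genes with a mean intensity within 0.5 log2 units of P2ry1, 1.95% were at least 2-fold higher, and their median difference was -0.04. P2ry1 has 1 probe in 1 spot, so no second probe stands beside this value. With another background correction (normexp) the difference was 2.24, and over the 12 alternatives it ran from 2.24 to 3.21.

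P2ry2, a receptor for ATP and UTP through which phagocytes sense nucleotides from apoptotic cells, had 1080 in untreated and 1167 in treated BMDMs. The scaled difference was 0.01 with a spot SD of 0.06, and its sign turned in 2 of the 12 alternatives.

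P2ry6, which in microglia is known for starting phagocytosis on binding UDP, had the best measured value of the set, because its probe was printed in 10 spots on each array. One spot was flagged as an outlier and left out. The other 9 spots ran from 13512.5 to 14355.5 on the untreated array, with a median of 13831.7. On the IL-4 array they ran from 25885.1 to 27188.1, with a median of 26416.1. Before scaling between arrays, every spot was higher on the treated array. Spots of one probe at like signal spread by only 0.05 log2 units, so small differences can also separate the spots of 2 arrays. How many other probes printed in 10 spots did so was not counted. The scaled difference was 0.83 ± 0.04 log2 units (SD, n = 9 spots of 1 probe), from 0.78 to 0.90 between spots, and the flagged spot gave 0.78. These spots read 1 RNA sample per array and are not replicates of the treatment. P2ry6 was number 399 of 12744 from the highest difference. Scaling on the median of all probes or on spike-in controls took it past 2-fold, with 1.12 at the highest, and all other alternatives left it within 2-fold.

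**Figure D3:**
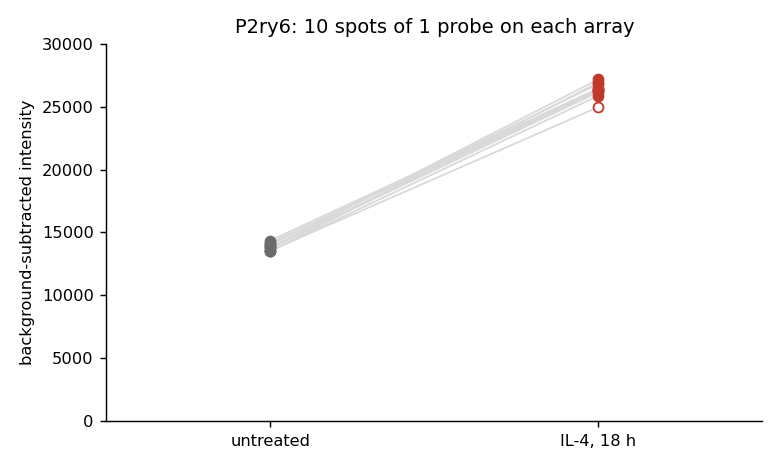
Background-subtracted intensity of the 10 spots of the P2ry6 probe on the untreated and the IL-4 array, with lines joining the same spot and an open symbol for the spot flagged as an outlier. The 9 unflagged spots sit between 13512.5 and 14355.5 without IL-4 and between 25885.1 and 27188.1 with it.

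The 3 Gi-coupled receptors lie next to each other on chromosome 3, in the order P2ry14, P2ry13, P2ry12 in the GRCm38.p6 gene order. They did not share a difference. P2ry13, an ADP receptor of myeloid cells, had an intensity of 258 without and 88.6 with IL-4, a difference of -1.64 with a spot SD of 0.11. Among the 1200 genes of like signal the median difference was -0.11, and 2.25% were at least 2-fold lower. P2ry12, the ADP receptor of platelets and of resting microglia, had 121 and 69.5, a difference of -0.90 with a spot SD of 0.17. Among the 1170 genes of like signal the median was -0.13, and 4.96% were at least 2-fold lower. P2ry14, which binds UDP-glucose and other UDP-sugars, had 279 and 280, a difference of -0.09 with a spot SD of 0.08.

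Both lower receptors were dim. The software error on the treated array was 12.7% of the intensity for P2ry13 and 13.1% for P2ry12, the 2 highest among the receptor probes. A spike-in control with a log2 intensity of 6.75 on the untreated array, where P2ry12 had an intensity of 121, differed by -0.72 after the same scaling, and the next brighter control, at 9.04, differed by -0.40. Their part in the differences of P2ry12 and P2ry13 was not tested. Over the 12 alternatives P2ry13 ran from -1.70 to -1.13 and stayed at least 2-fold lower, and P2ry12 ran from -0.96 to -0.62 and never reached 2-fold.

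The receptors for ADP thus differed in direction, with the Gq-coupled P2ry1 higher and the Gi-coupled P2ry12 and P2ry13 lower in the treated cells. None of the 3 changed sign in any of the 12 alternatives, but most of these could not have turned a sign. The filters, the median over probes and kept flagged spots left the values the same or nearly so. The authors' values come from the same spots. Scaling each array by a constant shifted differences by at most 0.29, too little to turn even the -0.90 of P2ry12. Quantile normalization, cyclic loess and normexp do not shift all genes alike, and gave -0.75, -0.73 and -0.64 for P2ry12.

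P2RY12 and P2RY13 are known as markers of homeostatic microglia, so a list of 10 other genes of that state was read beside them. Of these 10, 9 were detected on both arrays and Sall1, a transcription factor of microglia, on neither. At least 2-fold lower were 2, the fractalkine receptor Cx3cr1, at -3.14, and the lysophosphatidylserine receptor Gpr34, at -1.34. None was at least 2-fold higher. Tmem119 differed by 0.02, Siglech by 0.02 and the lipid receptor Trem2 by -0.03. The median of the 9 was 0.02, beside -0.90 for P2ry12 and -1.64 for P2ry13.

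Of the adenosine receptors, Adora2b was measured with 2 probes to the same transcript. The brighter had 239 without and 1127 with IL-4, a difference of 2.14 with a spot SD of 0.06. The dimmer had 116 and 431, a difference of 1.80 with a spot SD of 0.10. Both SDs were taken at the mean signal of the 2 arrays, above the untreated signal. Both probes were higher in treated cells, by 4.40-fold and 3.48-fold, and their differences were 0.34 log2 units apart. Adora2a, the high-affinity receptor through which adenosine quietens many leukocytes, had 449 and 370, a difference of -0.38, or 1.30-fold lower, with a spot SD of 0.07. Over the 12 alternatives Adora2b ran from 1.83 to 2.42 and Adora2a from -0.44 to -0.09, with no change of sign in either.

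**Figure D4:**
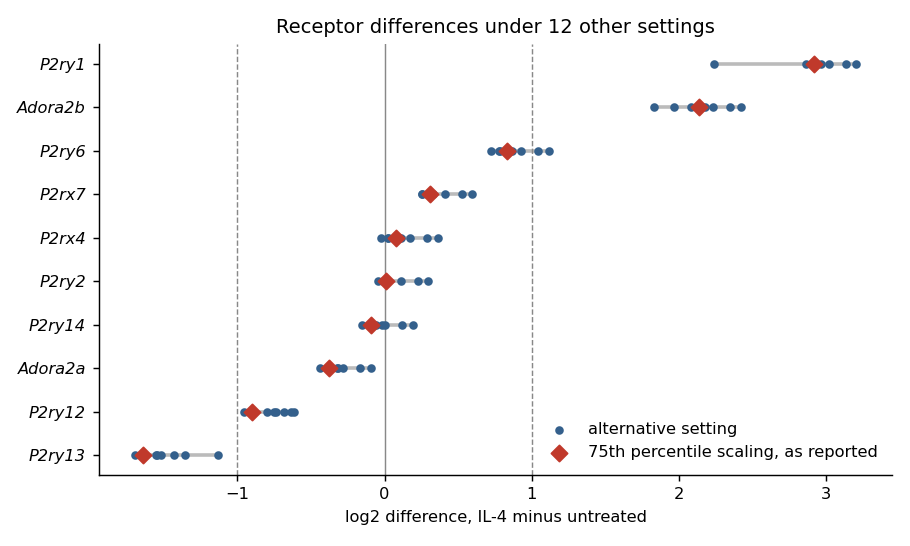
Log2 difference of each receptor as reported (red diamonds) and under 12 other settings of scaling, background correction, filter and probe choice (blue points), with grey bars from the lowest to the highest and dashed lines at 2-fold. P2ry1 and Adora2b stay above the upper line and P2ry13 below the lower line in all 12 settings, and P2rx4, P2ry2 and P2ry14 lie on both sides of 0.

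Around the receptors, 7 lists with 96 genes of the pathway were read in the same way, namely the other P2 and adenosine receptors, enzymes that make and break nucleotides outside the cell, ATP release and nucleoside transport, the inflammasome that P2RX7 triggers, G proteins with phospholipase C, the cyclic AMP pathway, and receptor desensitisation. On both arrays 83 were detected, on 1 array 3 and on neither 10. At least 2-fold higher were 2, Plcb1 and Pde4b, and at least 2-fold lower were 3, P2rx6, Entpd2 and Pde8a. These are 2.33% and 3.49% of the 86 detected on at least 1 array, close to the 3.06% and 3.35% of all such genes. The median over the 83 genes was -0.10, with -0.01 for all genes.

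Of the 10 other receptors of both families, P2rx2, P2ry4, P2ry10 and Adora1 were detected on neither array. Adora3, a Gi-coupled adenosine receptor, had 384 in untreated and 213 in treated BMDMs, a difference of -0.95 that passed 2-fold in 1 of the 12 alternatives. P2rx6, a channel subunit, was detected in untreated BMDMs only and was at least 2.25-fold lower with IL-4, taken against the lowest detected signal of the treated array, and it reached 2-fold in only 6 of the 11 alternatives that gave it a value. P2rx5 differed by 0.60, P2rx3 by 0.32, P2rx1 by -0.27 and P2ry10b by 0.15.

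The 2 ectoenzymes that turn ATP to adenosine were lower by less than 2-fold. Entpd1 (CD39), which cuts ATP and ADP to AMP, had 771 in untreated and 661 in treated BMDMs, a difference of -0.32. Nt5e (CD73), which cuts AMP to adenosine, had 190 and 143, a difference of -0.51. Entpd2, which favours ATP and leaves ADP, had 212 and 112, a difference of -1.02 that reached 2-fold in only 6 of the 12 alternatives and was -0.70 with normexp. Enpp3, a pyrophosphatase of the cell surface, differed by 0.89 and passed 2-fold in 4 of the 12. The 2 probes of Bst1 disagreed. Its brighter probe, from which the gene was read, differed by -0.64. The other, detected with IL-4 only, was higher by a bound of 2.13. Over the 12 alternatives Bst1 ran from -0.70 to 0.75. The enzymes that clear adenosine differed little, with -0.02 for adenosine deaminase Ada, 0.11 for adenosine kinase Adk and -0.10 for the purine nucleoside phosphorylase Pnp. Entpd3, Entpd8 and Dpp4 were detected on neither array. The median of the 11 enzymes on both was -0.10, and its sign turned under median scaling, to 0.11, and under spike-in scaling, to 0.18.

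None of the genes for ATP release and nucleoside transport reached 2-fold as reported, though some did under other settings. The ATP release channel Panx1 differed by -0.27 and the vesicular nucleotide carrier Slc17a9 by 0.40. The equilibrative carrier Slc29a2 had 139 in untreated and 288 in treated BMDMs, a difference of 0.95 that passed 2-fold in 5 of the 12 alternatives. Its paralog Slc29a1, with 14470.5 and 15899.5, differed by 0.04. Panx2, detected in untreated BMDMs only, was at least 1.57-fold lower and passed 2-fold in 2 of 11.

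None of the inflammasome genes that act with P2RX7 reached 2-fold either. Nlrp3, the sensor, differed by -0.82 on its brighter probe and by -0.30 on the other. It was dim, with 52.7 in untreated and 32.0 in treated BMDMs on the brighter probe, near the lowest detected intensity of the IL-4 array, 27.9. With quantile normalization it differed by -0.47. The adaptor Pycard differed by 0.57, Casp1 by 0.06, Casp4 by 0.62 and Kcnk6, a potassium channel that acts with P2RX7, by 0.50. Of the cytokines that the inflammasome matures, Il18 differed by -0.89 and Il1b by -0.29. The median over the 9 genes on both arrays was 0.06.

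**Figure D5:**
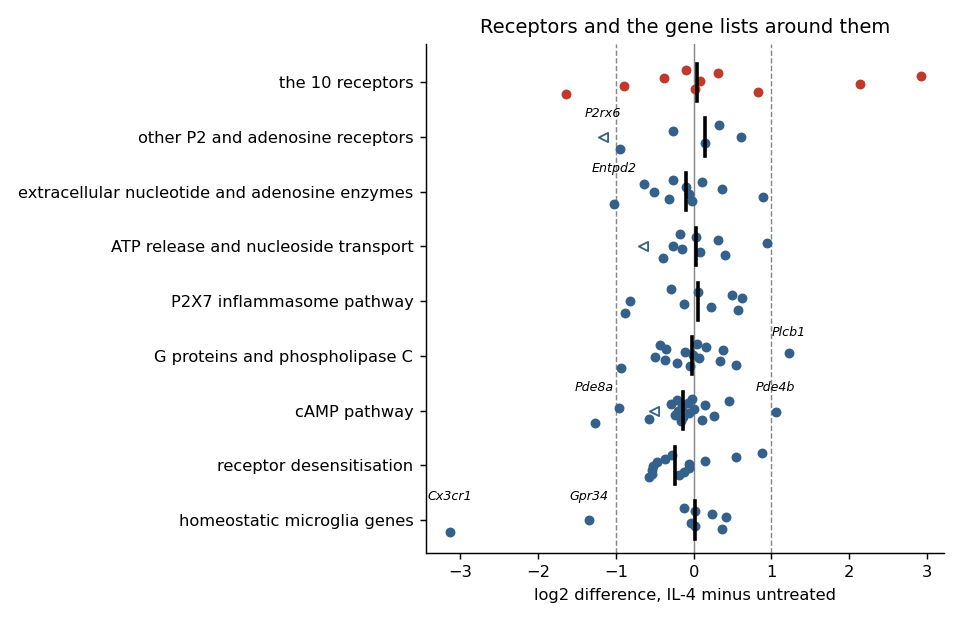
Log2 difference, IL-4 minus untreated, of the 10 receptors (red) and of each gene in 8 related lists (blue), with black bars at the median of the genes detected on both arrays, open triangles for bounds and dashed lines at 2-fold; named genes are at least 2-fold changed. The receptors reach from -1.64 to 2.92 around a median of 0.04, and the genes of the 7 pathway lists lie between -1.27 and 1.22.

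Downstream of the Gq-coupled receptors, Plcb1, a phospholipase C that Gq activates, had 108 in untreated and 269 in treated BMDMs, a difference of 1.22. Its second probe gave -0.11, so the probes disagreed, and the gene reached 2-fold in 10 of the 12 alternatives. Gnaq, the Gq subunit itself, differed by 0.16, Gna11 by -0.11 and Gna15 by 0.55. Downstream of the Gs- and Gi-coupled receptors, Gnas, the Gs subunit, differed by 0.06 and Gnai2 by -0.05. The cyclic AMP phosphodiesterases went both ways, with Pde4b at 1.05 (0.74 on another probe), Pde8a at -1.27 and Pde3b at -0.96. Pde4b and Pde8a each reached 2-fold in 9 of the 12 alternatives and Pde3b in 1. Pde8a was dim, with 79.3 and 35.1, and was at -0.63 with normexp. None of the 14 regulators of receptor desensitisation, the RGS proteins, receptor kinases and arrestins, reached 2-fold as reported (Rgs3, at 0.88, did in 2 of the 12 alternatives), and their median was -0.24, with a change of sign under spike-in scaling, to 0.05.

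The identity of the cells bears on receptors that other blood cells also carry. Of 9 macrophage markers 8 had a probe and all 8 were detected on both arrays, among them Csf1r and Adgre1, while Cd14, Fcgr1 and Mertk were at least 2-fold lower with IL-4. All 4 M2 markers named by the study, Arg1, Retnla, Chil3 and Mrc1, were at least 2-fold higher. Of 7 platelet and megakaryocyte markers, which mark cells rich in P2RY1 and P2RY12, 5 were detected on both arrays, Gp1ba and Gp6 were on neither, and their summed intensity was 1009 in untreated and 785 in treated BMDMs. One of them, the integrin Itga2b, was at least 2-fold lower, at -1.44, in the same direction as P2ry12 and P2ry13. Of the T and B cell markers, Cd3g, Cd8a, Ms4a1 and Cd79a were detected on neither array, and Cd3e and Cd4 were on both and within 2-fold. All 5 neutrophil markers with a probe were on both arrays, with a summed intensity of 36602 and 35676, and none reached 2-fold. All 6 fibroblast and stroma markers were on both arrays too, with 328245 and 320330, and none reached 2-fold. Of 5 mast cell and basophil markers 4 had a probe, Fcer1a and Ms4a2 were on neither array, and the summed intensity was 274 and 128. Cpa3, a mast cell protease, was detected in untreated BMDMs only and was at least 3.51-fold lower with IL-4, and the basophil protease Mcpt8 differed by -0.74, both in the direction of P2ry12 and P2ry13. Of 5 eosinophil markers 4 were on both arrays and the defining marker Epx was on neither, with a sum of 962 and 1067. Of 4 endothelial markers 3 were on both arrays and Tek was on neither, with a sum of 2760 and 3340. One of them, the tight junction gene Cldn5, had 238 and 528, a difference of 1.05 that reached 2-fold in 10 of the 12 alternatives, in the direction of P2ry1 and Adora2b. The summed intensities were not scaled between arrays and include probes that were not detected. A sum can rest mostly on 1 bright probe, as with Col1a2, at 233342 of the 328245 for fibroblast and stroma markers in untreated BMDMs. Levels are not comparable between probes, so the sums are no measure of cell numbers. The part of other cells in the receptor differences was not tested, and in RNA of a whole culture fewer cells of a type and less RNA per cell cannot be told apart.

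Each array held 43020 spots for genes, of which 59.8% on the untreated and 57.4% on the IL-4 array were detected, and 0 were saturated. The lowest detected intensity of a probe was 29.2 and 27.9 on these arrays. Having 1 array per condition limits how precise any value here is.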

How the data were processed

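The authors deposited, for each of the 2 arrays, the spot table of Agilent Feature Extraction 10.10.1.1 (per the file headers, run with default settings per the study's methods), in which the intensity of a spot is background-subtracted and detrended but not scaled between arrays. A table of log2 values was also deposited by the authors. Its column medians were 0.161 for untreated and 0.0160 for IL-4, its differences between columns matched those of the spot tables within 0.01 for 39422 of 39424 probes, so the direction is settled, and its centring and the tool behind it are not given in the sources used here.

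Groups were taken from the sample labels. Control spots and outlier-flagged spots were left out, repeated spots were averaged per probe on the log2 scale, and each array was scaled by subtracting its own 75th percentile (9.84 untreated, 9.94 IL-4). The array design was annotated on mm9. Genes were named by RefSeq accession from a table of GRCm38.p6, which gave symbols for 27229 of 39429 probes, and the brightest probe stood for a gene with several. A probe well above background on 1 array only gives a bound, and one on neither gives no fold. Probes printed in 10 spots gave the spot SD, as the median over those within 1 log2 unit of the mean signal of the 2 arrays. With 1 array per condition no test was run, and genes were counted at 2-fold.

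The genes named are the 10 receptors, genes of fixed pathway and marker lists, and the 3 nearest genes with a probe on each side of a receptor. One marker gene is not reported here. Members and lists were chosen with earlier results of these data known. Counting was tested on simulated data with known changes of 4-fold in brighter probes. That checks the code and says nothing of dim probes or of differences near 2-fold. Alternatives were 6 scalings, normexp (offset 50, on the median pixel intensity), the authors' processed log2 values, flagged spots kept, the median over probes, 2 other filters and cutoffs of 1.5-fold and 4-fold. Software was limma 3.58.1 in R 4.3.3 and pandas 2.3.3 in Python 3.11.15.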

Additional observations from a re-analysis of the deposited data

How the results depend on the processing

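The count of receptors at least 2-fold lower, 1 as reported, was 2 at a cutoff of 1.5-fold (P2ry12 and P2ry13) and 0 at a cutoff of 4-fold, and was 1 under each of the 12 other alternatives. The count at least 2-fold higher, 2 as reported, was 3 with median scaling, with spike-in scaling and at 1.5-fold, where P2ry6 joined P2ry1 and Adora2b, and was 2 elsewhere. Both other filters could move no receptor, because all 10 were detected on both arrays, keeping flagged spots changed the spots of P2ry6 alone, and the median over probes could move only P2rx7 and Adora2b, so these show nothing of how stable the rest are. No receptor at least 2-fold changed had a change of sign, which scaling by 1 value per array could not have brought about. In all, 7 receptors kept their sign throughout, and P2rx4, P2ry2 and P2ry14 did not. The median of all genes shifted by 0.21 with median scaling and by 0.29 with spike-in scaling; relative to that shift the P2ry6 difference is the reported one. Over all genes on at least 1 array the counts of 431 higher and 472 lower became 250 and 153 with normexp, 883 and 2076 with the authors' processed values, 881 and 2077 without a filter, and 295 and 184 with genes on both arrays only. The authors' values give almost the same differences as the spot tables and were read without the detection bounds. Their counts therefore resemble those without a filter and do not show an effect of the authors' scaling. No paired analysis was possible because there is a single array for each condition, and for the same reason no array could be left out. The untreated intensities of P2ry12, P2ry13 and P2ry1, 121, 258 and 181, were dim, which limits their differences. The same holds for Adora2b, with 239 and 116 on its probes.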

Other observations

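The genes beside the receptors on the chromosomes were read as well, taking the 3 nearest with a probe on each side in the GRCm38.p6 gene order. Of 36 such neighbours 26 were detected (well above background) on both arrays, 3 on 1 array and 7 on neither, and the median difference of the 26 was -0.15. One was at least 2-fold higher, Fchsd2, a membrane-binding protein with roles in endocytosis, which was 4.44-fold higher (2.15 log2 units, and past 2-fold in all 12 alternatives). Fchsd2 lies next to P2ry2, which differed by 0.01, and 2 places from P2ry6, which differed by 0.83. The lower neighbour was the orphan receptor Gpr171, which lies next to P2ry14 in the chromosome 3 row of P2ry14, P2ry13 and P2ry12. Gpr171 was detected in untreated BMDMs only and was at least 2.62-fold lower with IL-4, with a bound under 2-fold after normexp. P2ry14, between Gpr171 and P2ry13, differed by -0.09.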
